A study of Danio rerio with 24 samples.

Results

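The genes that copy DNA in S phase were followed in the eyes of zebrafish larvae exposed to the anthelmintic mebendazole (MBZ) or to the related benzimidazole BBC, which served as its control. The list was chosen by function, with earlier results of these data known. It holds 55 genes, from the proteins that mark replication origins to the enzymes that supply nucleotides. Of these, 42 had a named probe on the array, out of 9739 named genes tested, and 22 of the 42 had more than 1 probe, for 72 probes in all. The other 13, *cdc6*, *cdc45*, *gins4*, *pola1*, *pole*, *rfc4*, *fen1*, *lig1*, *rrm2*, *chaf1b*, *slbp*, *e2f1*, and *rbl1*, had no probe that could be named here and were not analysed.

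Larvae of the AB line entered a 0.3 μM solution of MBZ or BBC at 48 h post fertilization (hpf), and eyes were dissected after 12, 24, or 36 h of exposure, at 60, 72, or 84 hpf. RNA from pooled eyes was hybridized to 1-colour arrays, with 4 arrays for each compound and time and 24 in all. No untreated or vehicle-only eyes were among the samples, so a difference between ages is one between eyes that had also been in MBZ or BBC for longer. The labels number the replicates without naming clutches, and the p values measure the spread between these pools.

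DNA replication begins when the origin recognition complex and the licensing factors load the MCM2-7 helicase onto DNA before S phase. Helicase activators then start the fork, primase and the polymerases copy the strands while held by a sliding clamp, and other enzymes keep up the supply of nucleotides and the marking of new chromatin. In the fish retina these genes are known as marks of cycling progenitors, which persist at the ciliary margin after the central retina has differentiated.

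The level of a gene is given as the log2 ratio of the signal of its brightest probe to the array's 75th percentile, so that a difference of 1 is a 2-fold change. Levels were compared between samples for 1 gene at a time, because the brightness of different probes cannot be compared. Means over replication genes and summed signals of marker genes were also compared between samples, over the same probes on every array. In such a sum the brightest probes weigh most. In bulk RNA, fewer cycling cells and less RNA per cycling cell cannot be told apart. Of the 42 genes, 41 were well above background on all 24 arrays. The exception was *gins1*, a subunit of the GINS complex that activates the helicase. Its probe was well above background on 4 of 4 arrays of each compound at 60 hpf. At 72 hpf this held on 1 MBZ and 2 BBC arrays, and at 84 hpf on 1 array of each compound. One spot of *mcm4* on an MBZ array at 84 hpf was uneven and was left out, so the MBZ mean of *mcm4* at that age rests on 3 arrays.

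Detection was read for marker genes of the eye and of other tissues. All 14 lens and 14 photoreceptor genes with a tested probe were well above background on all arrays, as were 16 retinal progenitor and 6 pigment epithelium genes. A probe was tested only where all 4 arrays of some condition had it well above background, so this detection was partly built in. The markers *rho*, *opn1sw1*, *col15a1b*, and *gap43* were among those with no named probe. The 13 skeletal muscle, 7 red blood cell, and 6 macrophage genes were also well above background on all arrays, as were 4 of 5 pituitary genes. Detection alone therefore does not establish that the samples were pure eye. Each exposure time was hybridized on 2 slides of its own and scanned on its own day, so a difference between ages cannot be told apart from one of exposure length or of scan day. Within each slide MBZ and BBC took fixed positions, so the compound likewise cannot be told apart from the array position.

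The first question was how the replication genes moved as the eye grew older. Between 60 and 84 hpf, 41 of the 42 genes were lower in MBZ eyes and all 42 in BBC eyes (limma, adjusted p under 0.05 over all probes). Of all named genes, 35.3% were lower in MBZ eyes and 38.4% in BBC eyes by the same rule. The counts include *gins1*, whose probe was kept only because of its signal at 60 hpf. With normexp, a background correction used as an alternative, fewer genes were called lower in each compound, as given at the end. The median change of the 42 was -1.26 in MBZ eyes, a 2.4-fold fall, and -1.45 in BBC eyes, a 2.74-fold fall, while the median over all named genes was -0.05 and -0.08. Single genes ranged from -1.90 to -0.43 in MBZ eyes and from -1.99 to -0.63 in BBC eyes, and 32 and 36 of them fell more than 2-fold. In MBZ eyes, every array at 84 hpf lay below every array at 60 hpf for 42 of 42 genes, against 29.2% of named genes. In BBC eyes this held for 41 of 42, against 37.0% of named genes, and the exception was *cdt1*.

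The MCM2-7 helicase, the ring that unwinds DNA at the fork, fell furthest among the groups of several genes, with a median of -1.57 in MBZ and -1.75 in BBC eyes over its 6 subunits. The subunit gene *mcm6* stood at 5.38, 5.81, 5.39, and 5.16 on the MBZ arrays at 60 hpf, at 4.27, 4.43, 3.83, and 4.41 at 72 hpf, and at 4.09, 3.71, 3.48, and 3.68 at 84 hpf. On the BBC arrays it stood at 5.80, 5.80, 5.56, and 5.56 at 60 hpf, at 4.38, 4.15, 3.95, and 4.54 at 72 hpf, and at 3.61, 3.78, 3.33, and 4.06 at 84 hpf. Every array at 60 hpf was more than 1 log2 unit above every array at 84 hpf in both compounds. The fall of *mcm6* was 3.24-fold in MBZ eyes (log2 change -1.69 ± 0.18 SE, limma adjusted p = 6.7e-08) and 3.96-fold in BBC eyes (-1.99 ± 0.18, adjusted p = 6.7e-09). The other 5 subunits fell between 2.17-fold (*mcm4*) and 3.18-fold (*mcm2*) in MBZ eyes and between 2.88-fold (*mcm7*) and 3.54-fold (*mcm2*) in BBC eyes. The second probe of *mcm4* changed by -1.403 in MBZ eyes, where the brightest changed by -1.115.

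Most genes that act before the helicase were also called lower in both compounds. The 6 subunits of the origin recognition complex, which binds the origins, had a median change of -1.32 in MBZ and -1.54 in BBC eyes, from -0.81 and -0.93 for *orc1* to -1.43 in MBZ eyes (*orc6*) and -1.64 in BBC eyes (*orc5*). Geminin, encoded by *gmnn* and known to block the relicensing of origins, fell 2.78-fold in MBZ eyes (-1.48 ± 0.15 SE) and 3.02-fold in BBC eyes (-1.59 ± 0.15). The gene not called in MBZ eyes was *cdt1*, the loader of the helicase that geminin inhibits. It was among the dimmest of the genes, at -5.64, -5.61, -5.61, and -5.74 on the MBZ arrays at 84 hpf, against -5.18, -4.93, -5.40, and -5.37 on those at 60 hpf. On the BBC arrays it was at -5.39, -5.46, -5.97, and -4.71 at 84 hpf, against -4.73, -4.81, -4.57, and -4.89 at 60 hpf, and the array at -4.71 lay inside the range of the younger eyes. The change of *cdt1* was -0.43 ± 0.23 in MBZ eyes (limma adjusted p = 0.10) and -0.63 ± 0.23 in BBC eyes (adjusted p = 0.019). Its BBC call was lost without the third BBC array at 60 hpf (adjusted p = 0.052) or without the third at 84 hpf (adjusted p = 0.095), and its MBZ change was called after quantile normalization (adjusted p = 0.023).

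**Figure D1:**
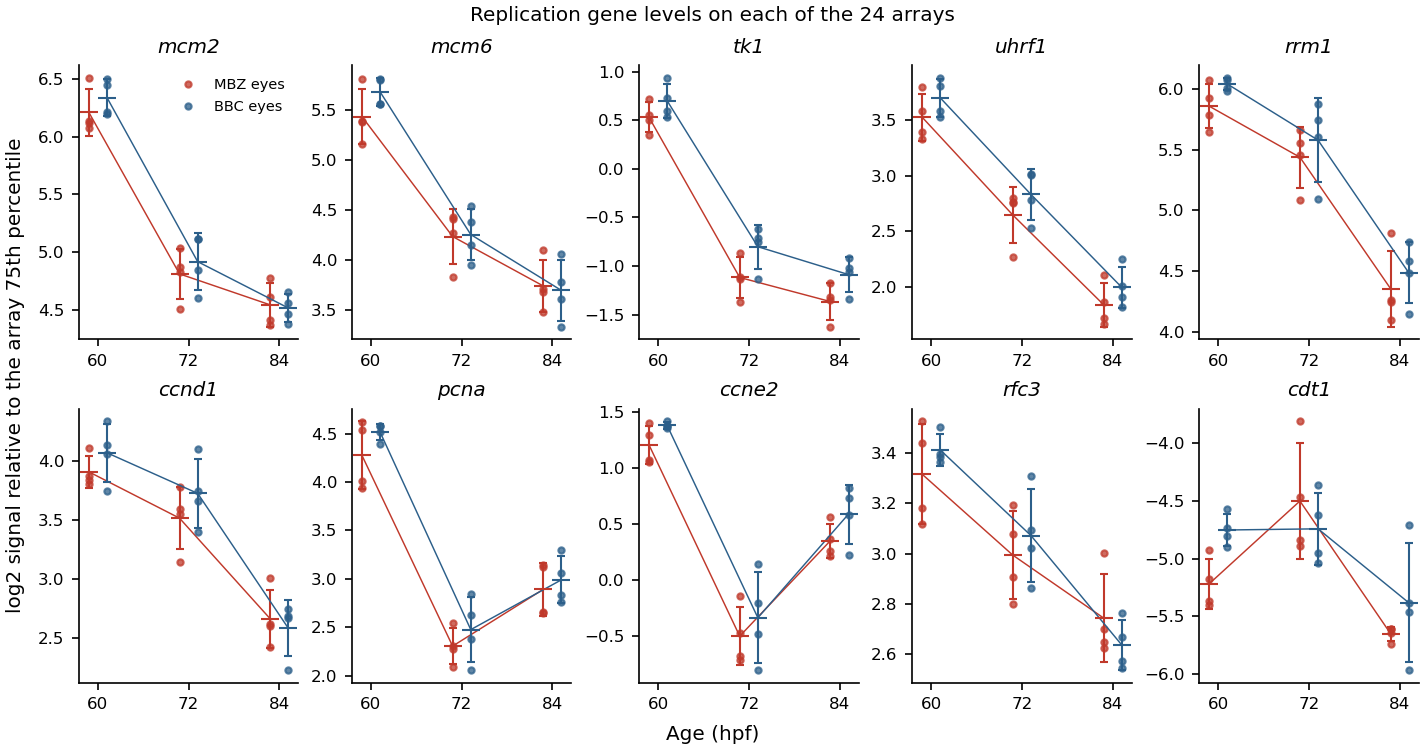
Levels of 10 replication genes on each of the 24 arrays, as log2 of the signal over the array's 75th percentile (y axis, own range in each panel), against age in hpf (x axis, points of the compounds set apart sideways). Points are arrays, with MBZ eyes in red and BBC eyes in blue, horizontal marks are means and bars are SD (n = 4). The points of the 2 compounds overlap at each age except for *cdt1* at 60 hpf, where all MBZ points lie below all BBC points, and *pcna* and *ccne2* are lowest at 72 hpf.

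Of the helicase activators, *mcm10* and the GINS subunits *gins1*, *gins2*, and *gins3* had a median change of -1.43 in MBZ and -1.45 in BBC eyes, and all 4 were lower in both. The probe of *gins1* was kept only because of its signal at 60 hpf. Few arrays had it well above background at 84 hpf, so the filter favoured a fall. In the normalized values of the authors, the difference of *gins1* was 0.00 in both compounds. At the fork itself, the polymerase and primase genes had a median change of -1.14 in MBZ and -1.36 in BBC eyes. The largest change among them was that of *pola2*, a subunit of the polymerase that starts each strand. It stood at 1.97, 1.32, 1.39, and 1.41 on the MBZ arrays at 84 hpf, against 2.94, 3.45, 3.10, and 3.36 at 60 hpf, and at 1.48, 1.68, 1.44, and 1.93 on the BBC arrays at 84 hpf, against 3.52, 3.45, 3.52, and 3.39 at 60 hpf. The ages were clearly apart in both compounds, with 1 of the older MBZ arrays well above the other 3. The fall was 3.22-fold in MBZ eyes (-1.69 ± 0.16 SE) and 3.58-fold in BBC eyes (-1.84 ± 0.16). The gene of the catalytic subunit of polymerase delta, *pold1*, fell 1.97-fold in MBZ eyes and 2.38-fold in BBC eyes.

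The clamp and its loader showed the smallest median fall of the groups with over 2 genes, at -0.75 in MBZ and -1.0 in BBC eyes. Within the group the sliding clamp gene *pcna* fell 2.61-fold in MBZ eyes and 2.88-fold in BBC eyes, whereas the loader subunit *rfc3* fell 1.49-fold and 1.71-fold. The *rfc3* levels were 3.0, 2.70, 2.62, and 2.65 on the MBZ arrays at 84 hpf, against 3.12, 3.53, 3.18, and 3.44 at 60 hpf, and 2.54, 2.57, 2.67, and 2.77 on the BBC arrays at 84 hpf, against 3.40, 3.51, 3.37, and 3.38 at 60 hpf. No array of *rfc3* at 84 hpf reached those at 60 hpf, but in MBZ eyes the gap between the ages was smaller than the spread within an age. Replication protein A, which coats single-stranded DNA, had a median change of -1.04 in MBZ and -1.22 in BBC eyes over its 3 subunits, with *rpa1* at -1.10 ± 0.14 SE and -1.22 ± 0.14 and *rpa2* at -1.04 ± 0.18 and -1.27 ± 0.18.

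The genes of nucleotide supply all fell, with a median of -1.29 in MBZ and -1.43 in BBC eyes. The largest fall in MBZ eyes was that of *tk1*, the S-phase thymidine kinase that salvages thymidine. Its levels were 0.50, 0.72, 0.35, and 0.56 on the MBZ arrays at 60 hpf, -1.11, -1.13, -1.37, and -0.86 at 72 hpf, and -1.18, -1.31, -1.62, and -1.35 at 84 hpf. On the BBC arrays they were 0.94, 0.73, 0.60, and 0.54 at 60 hpf, -0.71, -0.75, -1.13, and -0.61 at 72 hpf, and -1.06, -0.92, -1.34, and -1.02 at 84 hpf. The gene was thus already low at 72 hpf, and the fall by 84 hpf was 3.72-fold in MBZ eyes (-1.90 ± 0.13 SE, limma adjusted p = 4.3e-10) and 3.46-fold in BBC eyes (-1.79 ± 0.13, adjusted p = 7.1e-10). The ribonucleotide reductase gene *rrm1* fell 2.84-fold in MBZ eyes and 2.94-fold in BBC eyes. Thymidylate synthase (*tyms*) fell 2.45-fold in MBZ eyes and 2.64-fold in BBC eyes.

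Genes that copy chromatin marks fell as well, with a median of -1.53 in MBZ and -1.49 in BBC eyes. The maintenance DNA methyltransferase gene *dnmt1* fell 2.88-fold in MBZ eyes and 2.81-fold in BBC eyes, and *uhrf1*, whose product guides that enzyme to new DNA, fell 3.23-fold and 3.27-fold. The chromatin assembly gene *chaf1a* changed least in this group by its brightest probe, at -0.82 ± 0.18 SE in MBZ and -0.88 ± 0.18 in BBC eyes. Of the G1/S cyclins, *ccnd1* fell 2.37-fold in MBZ eyes and 2.80-fold in BBC eyes, and *ccne2* 1.81-fold and 1.73-fold.

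**Figure D2:**
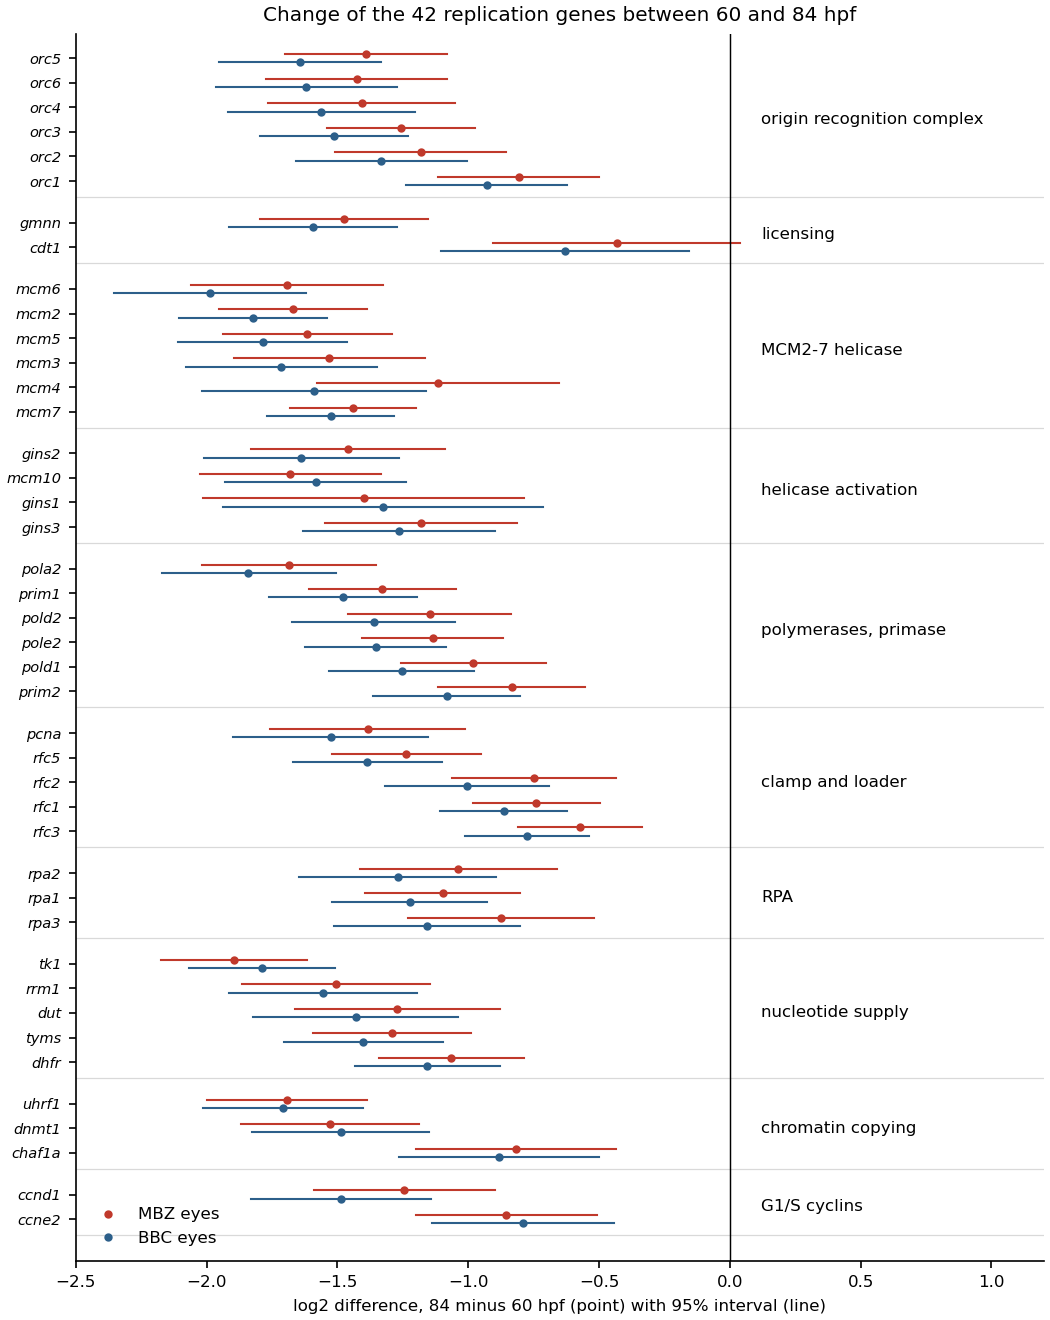
Change of each of the 42 genes between 60 and 84 hpf, as the log2 difference (x axis) with its 95% interval from the limma fit (lines), by gene (y axis) and grouped by role, in MBZ eyes (red, upper) and BBC eyes (blue, lower). Points lie left of 0 for every gene, from -1.99 (*mcm6* in BBC eyes) to -0.43 (*cdt1* in MBZ eyes), and the interval of *cdt1* in MBZ eyes crosses 0.

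The decline was uneven over the day. From 60 to 72 hpf, 38 genes were lower in MBZ eyes and 37 in BBC eyes, against 32.9% and 34.1% of named genes, with medians of -1.07 and -1.15. The licensing gene *cdt1* alone was called higher in this step, in MBZ eyes (0.72, limma adjusted p = 0.0078), a call lost after quantile normalization (0.13, adjusted p = 0.67), in the authors' values (0.11, adjusted p = 0.64), and with a normexp background correction (1.28, adjusted p = 0.076), and it stood at 0.01 in BBC eyes (adjusted p = 0.97). From 72 to 84 hpf, 14 genes were lower and 4 higher in MBZ eyes, and 23 were lower and 4 higher in BBC eyes. Of named genes, 32.0% and 32.8% were lower and 26.8% and 24.5% higher. The count of lower genes in MBZ eyes was thus near the share of named genes. The second step had a median of -0.25 in MBZ and -0.39 in BBC eyes, against -0.06 and -0.07 over named genes. Of named genes, 35.7% and 27.2% lay below these medians of the 42. The medians of the 42 turned to 0.22 and 0.31 when the background was corrected by normexp. That setting moved the median of all probes to -0.55 and -0.64. After quantile normalization, 11 genes were lower in MBZ eyes and 13 in BBC eyes in this step. The count of lower genes was 24 in MBZ eyes without the first MBZ array at 84 hpf, and in BBC eyes it was 12 or 13 without the first or the last BBC array at 72 hpf and 14 without the third at 84 hpf. Relative to 60 hpf, the median of all probes at 72 hpf lay at 0.19 in MBZ and 0.20 in BBC eyes. The 75th percentile of the signal was 437 to 663 on the MBZ arrays and 490 to 705 on the BBC arrays at 72 hpf, against 880 to 1433 and 983 to 1414 at the other ages, and the part of this in the steps was not tested.

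The 4 genes that were higher at 84 than at 72 hpf were the same in both compounds, namely *pcna*, the origin complex gene *orc3*, the loader gene *rfc1*, and *ccne2*. Their names were read from the results of this step. The level of *pcna* on the MBZ arrays was 4.01, 4.62, 3.93, and 4.54 at 60 hpf, 2.28, 2.31, 2.09, and 2.54 at 72 hpf, and 3.14, 2.65, 3.12, and 2.66 at 84 hpf. On the BBC arrays it was 4.58, 4.52, 4.57, and 4.39 at 60 hpf, 2.62, 2.38, 2.06, and 2.84 at 72 hpf, and 2.77, 2.83, 3.06, and 3.30 at 84 hpf. The 2 older ages did not overlap in MBZ eyes, and in BBC eyes 1 array at 72 hpf lay above 2 of those at 84 hpf. The difference of *pcna* between 84 and 72 hpf was 0.59 ± 0.18 SE in MBZ eyes (limma adjusted p = 0.0079) and 0.52 ± 0.18 in BBC eyes (adjusted p = 0.019). Its second probe was also lowest at 72 hpf, but its difference of 0.37 in each compound was not called (adjusted p = 0.072 in MBZ eyes and 0.078 in BBC eyes). The BBC call of *pcna* was also lost without the third BBC array at 72 hpf or the fourth at 84 hpf (differences of 0.38 and 0.41). The E-type cyclin gene *ccne2*, which drives entry into S phase, had the largest such difference, at 0.85 ± 0.17 in MBZ and 0.92 ± 0.17 in BBC eyes. All 4 genes kept this sign after quantile normalization, in the normalized values of the authors, with normexp, and in the mean over the probes of a gene, where *orc3* was no longer called (0.32, adjusted p = 0.075 in MBZ eyes and 0.19, adjusted p = 0.29 in BBC eyes).

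Another set fell more in the second step than in the first by their brightest probes. It held *ccnd1*, *chaf1a*, *dhfr*, *gins1*, *gins3*, *orc6*, *rrm1*, and *cdt1* in both compounds and *rfc3* in BBC eyes. The 2 steps differed little for some, as in BBC eyes for *orc6* (-0.745 and -0.875) and *rfc3* (-0.34 and -0.44). The set was read from the results of these steps, and the share of named genes with a larger second fall was not counted. The ribonucleotide reductase gene *rrm1* illustrated this course, with 5.55, 5.66, 5.08, and 5.45 on the MBZ arrays at 72 hpf between 5.65, 6.07, 5.78, and 5.92 at 60 hpf and 4.81, 4.26, 4.10, and 4.25 at 84 hpf. On the BBC arrays it was 6.07, 6.09, 6.01, and 5.99 at 60 hpf, 5.88, 5.60, 5.09, and 5.74 at 72 hpf, and 4.48, 4.58, 4.14, and 4.74 at 84 hpf. Its ages overlapped between 60 and 72 hpf in MBZ eyes, and no array at 84 hpf reached the others in either compound. This order of the steps depended on the processing. Of the 8 genes named for both compounds, the second step was the larger fall with normexp for 4 in MBZ eyes and 2 in BBC eyes, after quantile normalization for 7 and 6, in the authors' values for 8 and 6, and in the mean over the probes of a gene for 5 and 6. With normexp in BBC eyes, *rrm1* changed by -1.34 in the first step and -0.09 in the second, *ccnd1* by -1.22 and -0.24, and *rfc3* by -1.11 and 0.35. In addition, the second probe of *rrm1* changed by -1.75 in the first step in BBC eyes, where the brightest changed by -0.46.

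Such disagreement between probes of the same gene was common at 72 hpf. Over the 22 genes with several probes, the median range between probes was 0.77 in MBZ eyes and 0.76 in BBC eyes for the first step, and it was over 1 in 8 and 9 genes. For the whole interval from 60 to 84 hpf the median range was 0.42 in MBZ eyes and 0.34 in BBC eyes, it was over 1 in 3 genes and 1 gene, and no gene had probes of opposite sign. For *chaf1a* in BBC eyes the 3 probes changed by 0.32, -0.38, and -2.66 in the first step. Of the 30 probes other than the brightest, 21 had a lower log2 difference than the brightest probe of their gene in the first step in each compound. In the second step, the probes of 10 of the 22 genes had opposite signs in each compound. A split of the fall into its 2 steps therefore depended on the probe, and the fall over the whole interval did not change sign with it. Over all 72 probes, including that of *gins1*, 71 were called lower in MBZ and 72 in BBC eyes at 84 than at 60 hpf. Of all named genes, by their brightest probes, 35.3% were called lower in MBZ eyes and 38.4% in BBC eyes. Of all 31506 probes fitted, 20306 were called in MBZ eyes and 21004 in BBC eyes, but these counts join both directions.

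**Figure D3:**
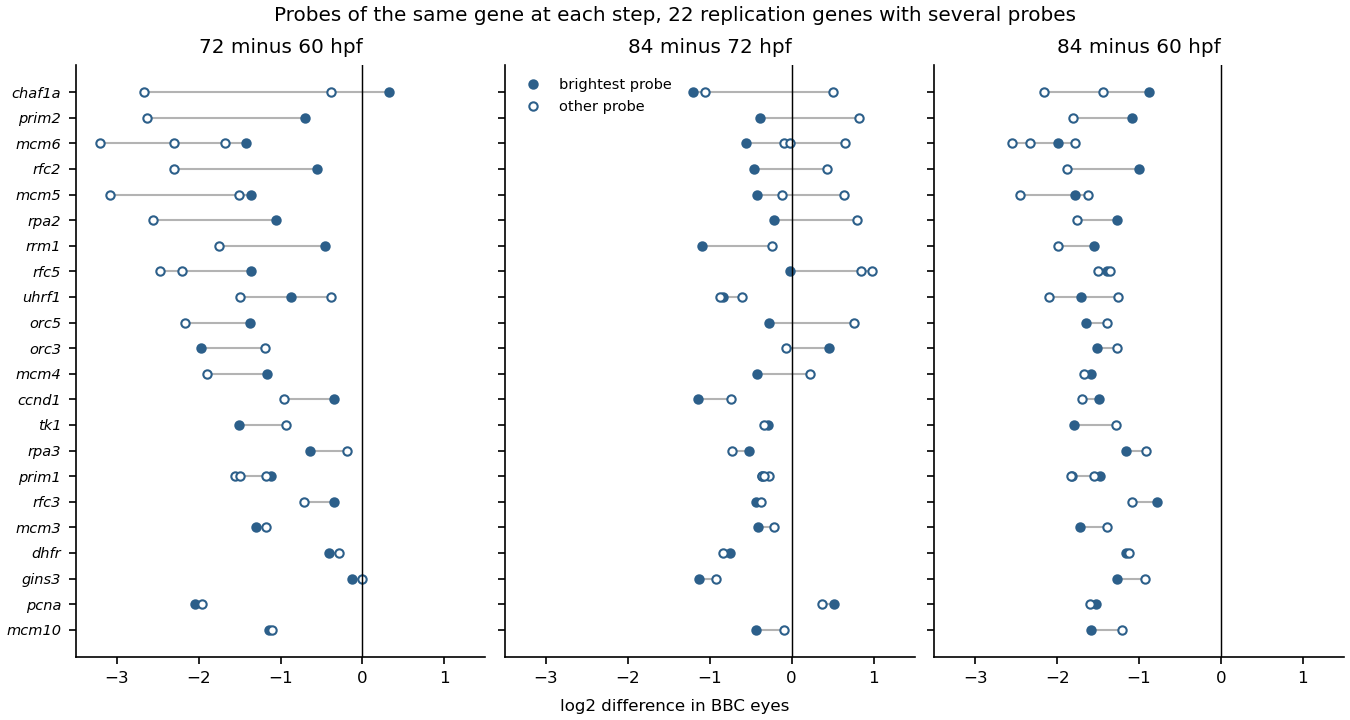
Log2 difference in BBC eyes (x axis) for each probe of the 22 genes that had several (y axis), for the first step, the second step, and the whole interval. Filled points are the brightest probe of a gene, open points its other probes, and lines join them. The points of a gene spread widely in the first step, as for *chaf1a* from -2.66 to 0.32, and less over the whole interval, where all lie below 0.

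Genes of replication outside the list were mostly lower too. They were likewise chosen with earlier results of these data known, so they are not independent support. Of 34 further genes with a tested probe, 31 were lower and 1 higher in MBZ eyes at 84 than at 60 hpf, and 33 were lower and 1 higher in BBC eyes, with medians of -1.26 and -1.40. Of all named genes, 35.3% were lower in MBZ eyes and 38.4% in BBC eyes. The largest falls were those of *wdhd1*, a fork protein that links helicase and polymerase (-2.65 in MBZ eyes and -2.78 in BBC eyes), of *skp2*, a ubiquitin ligase subunit (-2.01 and -2.16), and of *cdca7a* (-1.97 and -2.17). The gene that rose was *e2f3*, a transcription factor of the G1/S switch (0.40 and 0.59). Of 22 mitosis genes, 20 were lower in MBZ eyes and 22 in BBC eyes, with medians of -0.97 and -0.98.

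Markers of cell types were read over the same interval. Of the 9739 named genes, 3026 were called higher in MBZ eyes and 2924 in BBC eyes, and 3436 and 3735 were called lower. All 14 photoreceptor genes were higher at 84 than at 60 hpf in both compounds, and their summed signal, over the array's 75th percentile, was 185 to 313 in MBZ and 209 to 342 in BBC eyes at 84 hpf, against 48.3 to 55.3 and 33.5 to 56.9 at 60 hpf. Of 13 skeletal muscle genes, 12 were higher in MBZ eyes and 13 in BBC eyes, with sums of 71.9 to 136 and 110 to 179 at 84 hpf, against 18.2 to 48.1 and 8.05 to 25.3 at 60 hpf. Of 14 lens genes, 1 was higher and 4 were lower in MBZ eyes, with a median of -0.27, while 6 were higher and 0 lower in BBC eyes, with a median of 0.36. Their sums were 458 to 601 in MBZ eyes and 741 to 1003 in BBC eyes at 84 hpf, against 605 to 853 and 659 to 935 at 60 hpf. Of 7 red blood cell genes, 6 were lower in each compound. Of 16 retinal progenitor genes, 8 were lower in each compound, and 4 were higher in MBZ eyes and 6 in BBC eyes. The sum of the progenitor genes was 159 to 202 in MBZ eyes and 177 to 187 in BBC eyes at 84 hpf, against 186 to 201 and 200 to 221 at 60 hpf. At 84 hpf, the sum of 9 neuron genes was 156 to 220.5 in MBZ and 150 to 212 in BBC eyes. At 60 hpf it was 182 to 219 and 196 to 234. That of 6 pigment epithelium genes was 250 to 316 and 210 to 335.5 at 84 hpf. At 60 hpf it was 183 to 210.5 and 171 to 188. That of 6 macrophage genes was 6.58 to 7.42 and 4.97 to 5.78 at 84 hpf. At 60 hpf it was 7.85 to 9.60 and 7.78 to 8.78. The macrophage genes did not move together. In both compounds *coro1a*, *lcp1*, and *mfap4* were called lower, while *mpeg1.1* was called higher (0.82 in MBZ and 0.41 in BBC eyes). The gene *spi1b* was called lower in BBC eyes only, and *csf1ra* was called in neither. The part of these cell types in the fall of the replication genes was not tested.

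The second question was whether MBZ moved the replication genes against BBC within an exposure time. In the fit without a replicate block, none of the 42 was called at 12, 24, or 36 h at the adjusted p under 0.20 that the study used (limma), against 0.318%, 0.483%, and 6.33% of named genes. The smallest adjusted p was 0.73 (*pold1*) at 12 h, 1.0 (*chaf1a*) at 24 h, and 0.38 (*tk1*) at 36 h. Without adjustment, 2 genes at 12 h, 2 at 24 h, and 0 at 36 h had p under 0.05, against 4.18%, 4.56%, and 14.0% of named genes. The rank product over array pairs, the test of the study, called 0 of the 42 at each time. Single log2 differences reached from -0.47 up to 0.05 after 12 h, from -0.39 up to 0.24 after 24 h, and from -0.28 up to 0.24 after 36 h, with a median SE of 0.16. The 95% intervals of all 42 genes lay between -0.94 and 0.66 at 12 h, between -0.77 and 0.73 at 24 h, and between -0.74 and 0.70 at 36 h, and thus short of a halving or a doubling.

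At 12 h the differences leaned to 1 side without reaching a call. The median of the 42 was -0.18, and 40 of 42 were lower in MBZ eyes, against 52.1% of named genes. These genes share the same 8 arrays, so the count is not one of independent values. A mean level was taken over the 41 genes with a value on every array. These leave out *mcm4*, for its uneven spot, and include *gins1*, which was not well above background on all arrays. The mean was 2.79, 3.18, 2.81, and 2.98 on the MBZ arrays, against 3.20, 3.17, 3.09, and 3.03 on the BBC arrays. Of the MBZ arrays, 3 were below all 4 BBC arrays, and that at 3.18 was within their range. For 5 genes, *cdt1*, *pold1*, *prim2*, *pold2*, and *rpa1*, all MBZ arrays lay below all BBC arrays, against 2.09% of named genes. The level of *pold1* was 2.50, 2.85, 2.55, and 2.52 on the MBZ arrays, against 3.03, 3.01, 3.06, and 2.88 on the BBC arrays. The groups were separate by less than 0.1 log2 unit, and the difference was -0.39 (95% interval -0.67 to -0.11, limma adjusted p = 0.73). The summed signal of the skeletal muscle genes was 18.2, 48.1, 19.2, and 19.8 on these MBZ arrays, against 8.05, 9.05, 24.5, and 25.3 on the BBC arrays, and its part in the differences was not tested.

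**Figure D4:**
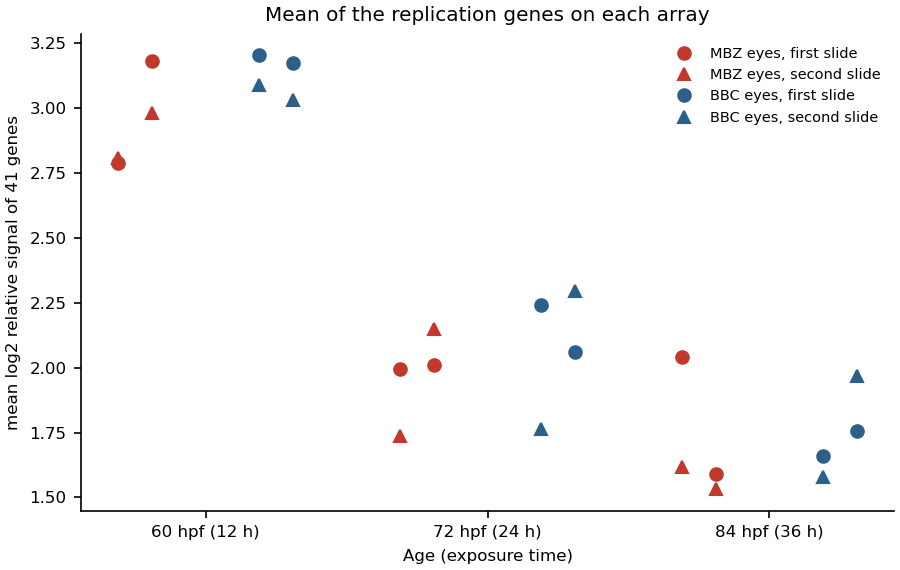
Mean log2 relative signal over the 41 genes with a value on every array, that is, all but *mcm4* (y axis). Each point is an array, by age and exposure time (x axis), in MBZ eyes (red) and BBC eyes (blue). Circles and triangles mark the first and second slide of an exposure time. Means lie between 2.79 and 3.20 at 60 hpf and between 1.53 and 2.29 later, and the first MBZ array at 84 hpf, at 2.04, stands above the other 3 at 1.53 to 1.62.

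At 24 h the median was -0.13, and 39 of 42 genes were lower in MBZ eyes, against 47.8% of named genes. With normexp the median was 0.06 and 14 genes were lower, while that of all probes was -0.13. The largest difference was that of *chaf1a* (-0.39, 95% interval -0.77 to -0.01), followed by *tk1* (-0.32, -0.60 to -0.04). A second, dimmer probe of *tk1* was the single member probe of 72 called at any time (-0.59 at 24 h, limma adjusted p = 0.17).

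At 36 h the median was -0.03, with 25 of 42 genes lower in MBZ eyes, against 44.2% of named genes. The 2 slides of this exposure time went opposite ways, with 6 of 42 genes lower in MBZ eyes and a median of 0.13 on the first slide, and 41 of 42 lower and a median of -0.20 on the second. At 12 h the slides gave medians of -0.22 (42 of 42 lower) and -0.17 (40 of 42), and at 24 h -0.13 and -0.10 (39 of 42 lower on each). The share of named genes lower on each slide was not computed. The 42 genes of a slide also share its arrays, so these counts are not of independent values. The first MBZ array at 36 h had the highest mean of the 41 genes, 2.04, against 1.59, 1.62, and 1.53 on the other MBZ arrays and 1.66, 1.76, 1.58, and 1.97 on the BBC arrays. The first slide held the MBZ arrays at 2.04 and 1.59 and the BBC arrays at 1.66 and 1.76. Its MBZ array at 1.59 thus lay below both of its BBC arrays. The gene nearest to a call was *tk1*, at -1.18, -1.31, -1.62, and -1.35 on the MBZ arrays, against -1.06, -0.92, -1.34, and -1.02 on the BBC arrays. Of the MBZ arrays, 2 lay above the lowest BBC array, and the difference was -0.28 (95% interval -0.56 to 0.00, limma adjusted p = 0.38). It was called without the BBC array at -1.34 (adjusted p = 0.18), when same-numbered arrays were blocked (adjusted p = 0.15), and when they were blocked within each exposure time, added after seeing the data (adjusted p = 0.11). At this time 6 of the 14 lens genes were called lower in MBZ eyes (median -0.62) and 2 of 6 macrophage genes higher (median 0.41). Of the 9739 named genes, 161 were called lower and 455 higher. The summed macrophage signal was 6.58 to 7.42 in MBZ eyes, against 4.97 to 5.78 in BBC eyes, and the part of either cell type in the differences of the replication genes was not tested. The summed skeletal muscle signal was lowest on the first MBZ array at 36 h. In the order of the replicates it was 71.9, 129, 136, and 112 on the MBZ arrays, against 123.5, 110, 179, and 125 on the BBC arrays. Its part in the differences was not tested either.

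**Figure D5:**
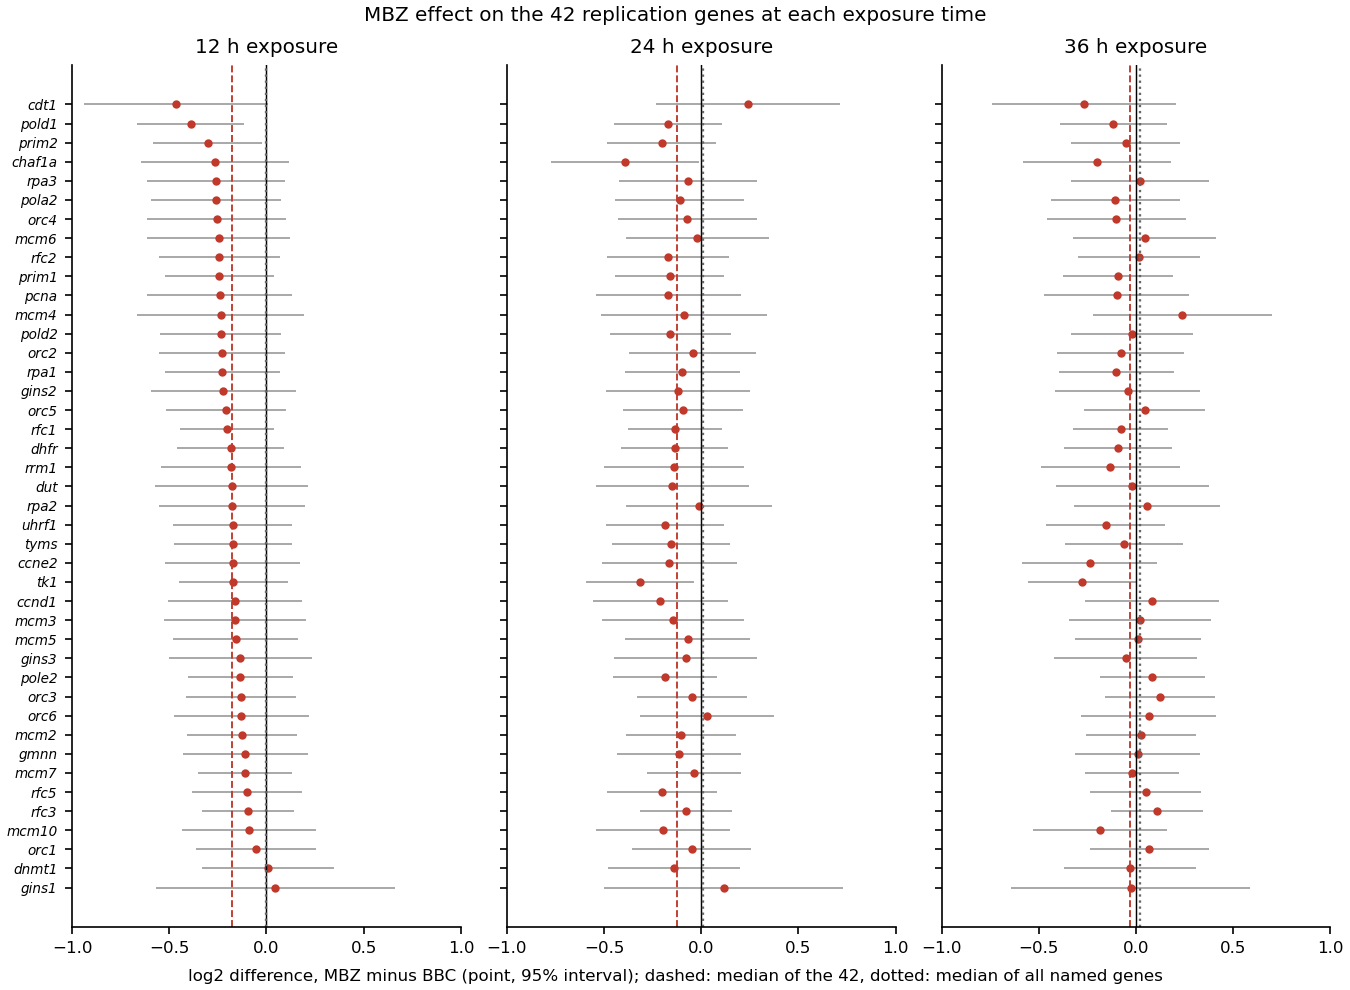
Log2 difference between MBZ and BBC eyes (x axis) with its 95% interval for each of the 42 genes (y axis, in the order of 12 h) after 12, 24, and 36 h of exposure. The dashed line is the median of the 42 genes, at -0.18, -0.13, and -0.03, and the dotted line that of all named genes. No gene was called without a replicate block, and no interval reaches -1 or 1.

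Whether the MBZ effect changed between exposure times was tested in the same fit, which also gives the difference between the 2 compounds in the fall from 60 to 84 hpf. None of the 42 was called for 36 h minus 12 h, 24 h minus 12 h, or 36 h minus 24 h, against 0.349%, 0.0%, and 0.0719% of named genes. The median for 36 h minus 12 h was 0.15, against 0.04 over all named genes. Of the 42, 37 were positive, that is, they fell less with age in MBZ eyes. Most named genes leaned the same way, with 4059 of the 9739 negative. The 42 genes share the same arrays, so the count is not one of independent values. The median of the 14 lens genes for 36 h minus 12 h was -0.60, with 1 called. The largest difference was that of *mcm4* (0.47 ± 0.30 SE, limma adjusted p = 0.70), and no gene had an unadjusted p under 0.05. The MBZ mean of *mcm4* at 84 hpf rests on 3 arrays, at 3.81 (the first array), 2.72, and 2.65. The BBC mean at that age was 2.825. By its second probe, the difference of *mcm4* was 0.27. Without the first MBZ array at 36 h the median of the 42 was 0.03.

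Few genes of replication and mitosis outside the list were called within an exposure time. Of all named genes, 0.318%, 0.483%, and 6.33% were called at 12, 24, and 36 h. Of the 34 further replication genes, 0 were called at 12 and 24 h and 1 at 36 h, with medians of -0.16, -0.12, and -0.03. The called gene was *e2f6*, known in mammals as a repressor of the E2F family, at 0.23 ± 0.08 SE (limma adjusted p = 0.19). Of the 22 mitosis genes, none was called at 12, 24, or 36 h, with medians of -0.13, -0.10, and -0.06.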

How the data were processed

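RNA from pooled eyes was measured on 24 one-colour Agilent arrays, which were grouped by the compound, exposure time, and replicate number in the labels. The authors extracted the scans with Feature Extraction (8.0 in the submitters' notes, another release in the file headers), and the deposited intensity values are background-subtracted within each array and not normalized between arrays. The authors also deposited log2 values that they had normalized with Agi4x44PreProcess, with options not given in the sources used here. These served as an alternative.

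Spots of a probe were averaged without uneven spots, and each array was scaled to its 75th percentile before the log2. A probe was kept where some condition had it flagged positive, significant, and well above background on each of its 4 arrays, as 31507 of 43603 were, and 31506 could be fitted. A gene is given by its brightest probe. Names came from RefSeq accessions (assembly GRCz12tu), with no coordinates because the array was designed on another build. Replication promoters were not analysed here.

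A single limma fit (limma 3.58.1, R 4.3.3) of the 6 conditions gave moderated tests with Benjamini-Hochberg adjustment over all probes, tested on simulated data beforehand. Genes were called at an adjusted p under 0.20 between compounds and 0.05 between ages. Between 66.5% and 76.7% of probes were well above background on an array, no spot was saturated, and precision is limited by there being 4 arrays per condition. The members and lists were chosen with earlier results of these data known. Genes named singly were fixed key members, the 5 largest and the 3 smallest falls in each compound, and called genes, and those named for the steps were chosen after their values were seen. Alternatives were quantile normalization, the authors' values, normexp with an offset of 50 on the median pixel signal, other filters and thresholds, a 1.5-fold minimum, means over probes, fits of single comparisons, replicate and slide blocks, a rank product with 100 permutations, and leaving out each array. The deviations of same-numbered MBZ and BBC arrays correlated at 0.15 to 0.43 at 24 h, at 0.03 to 0.13 at 12 h, and at -0.02 to 0.37 at 36 h. Differently numbered arrays of the same slide were not compared with these, so whether the numbers pair the arrays was not tested.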

Additional observations from a re-analysis of the deposited data

Results flagged for a closer look

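In 180 groups of 4 arrays (29 genes and the mean of the members, each in 6 conditions), 12 held an array that stood apart from the other 3 by more than Dixon's 95% value. Chance gives about 1 group in 20, so the count was not far above that of chance. The genes share the same arrays and the mean is taken over many of them, so several flags on an array are not independent. The first MBZ array at 36 h was high for the mean of the members (2.04, others 1.53 to 1.62), *mcm5* (4.67, others 4.33 to 4.37), *pola2* (1.97, others 1.32 to 1.41), and *pold1* (2.02, others 1.48 to 1.52), while the second was high for *gins1* (-6.59, others -7.07 to -7.01). The second MBZ array at 12 h was high for *mcm2* (6.51, others 6.08 to 6.14) and *pold1* (2.85, others 2.50 to 2.55). The third MBZ array at 24 h was low for *tyms* (2.12, others 2.47 to 2.48), *uhrf1* (2.27, others 2.76 to 2.80), and *orc6* (1.72, others 2.11 to 2.18). At 36 h, the third BBC array was low for *ccnd1* (2.23, others 2.67 to 2.75), and the fourth was high for *orc3* (0.93, others 0.69 to 0.73).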

How the results depend on the processing

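Over the differences between the compounds at each time, the fall from 60 to 84 hpf, and the MBZ effect at 36 h minus that at 12 h, 213 of 217 counts of called members lay within 1.5 times the reported count, 200 of 202 medians moved by less than the spread between replicates, and no called direction reversed. At 36 h, 1 member (*tk1*) was called with the replicate block (adjusted p = 0.15), with a replicate block within each exposure time, chosen after seeing the data (adjusted p = 0.11), and without the third BBC array. The replicate block moved no other count of calls by over 1.5 times. With normexp, 22 members were called lower in MBZ eyes and 32 in BBC eyes between 60 and 84 hpf, where the median SE was 0.40. The median fall in BBC eyes was -1.31 after quantile normalization and -1.23 in the authors' values, and the cause was not tested. Leaving out each array in turn gave 0 called members at 12 and 24 h and 0 to 1 at 36 h, 41 in MBZ eyes and 41 to 42 in BBC eyes between 60 and 84 hpf, and medians of -0.26 to -0.13, -0.24 to -0.03, and -0.16 to 0.03 at 12, 24, and 36 h. The median at 36 h was above 0 without the fourth MBZ array or without the fourth BBC array (0.03 each) and was -0.16 without the first MBZ array. Over all 42 members and these comparisons, 34 of 9108 values lost a call, 29 of them with normexp, and 6 gained one. Only the fall from 60 to 84 hpf had called members, 41 in MBZ and 42 in BBC eyes. Values of the other comparisons could not lose a call, so the share of 9108 does not measure how stable the calls were. The alternatives were applied to the steps and the other differences of effects after seeing the data, and there 12 of 212 counts and 5 of 200 medians moved beyond these limits. In the second step, the number of lower genes was 23 in MBZ eyes at an adjusted p under 0.20, 9 in MBZ and 10 in BBC eyes with the 1.5-fold minimum, 4 in each with normexp, and in BBC eyes 13 after quantile normalization, 14 in the authors' values, and 15 in a fit of the 8 arrays alone. Leaving out each array gave 10 to 24 in MBZ and 12 to 27 in BBC eyes. With normexp the medians were -1.41 in MBZ and -1.71 in BBC eyes in the first step, 0.22 and 0.31 in the second, where the sign turned, and 0.32 for the MBZ effect at 24 h minus that at 12 h. Single genes turned in the first step in the mean over probes (*chaf1a*, -0.97 in MBZ and -0.91 in BBC eyes), after quantile normalization (*cdt1*, -0.62 in BBC eyes), and with normexp (*gins1*, 1.87 in BBC eyes), and in the second with normexp (*rfc3*, 0.35 in BBC eyes), and the cause was not tested. Signal over background limits *gins1*, and the fold of *rfc3* in MBZ eyes missed the 1.5-fold minimum.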
